A study of Mus musculus with 6 samples.

Results

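Dok1 to Dok7, the downstream of tyrosine kinase genes, were followed in RNA-seq counts from mice that carry a deletion in 1 of them, Dok6. The question was which of the other 6 family members were expressed in the same tissue and whether any of them was higher when Dok6 was mutated. The 7 genes were taken by symbol from a table of 54532 genes, and all 7 were among the 17099 genes that passed the filter on low counts. Sciatic nerves of 3 wild type (control) mice and 3 Dok6 mutant mice at postnatal day 3 (P3) were sequenced, 1 library per mouse. The study calls the controls littermates, both groups were on the C57BL/6 background, and the sexes were not distinguished. According to the study's methods, the mutants came from floxed Dok6 mice crossed to EIIA-cre mice, whose recombinase is active in the early fertilized egg, so the deletion was not restricted to a cell type. The design text of the series asks whether genes of myelination change in the mutant nerve. The paper gives as its aim the search for possible pathways downstream of Dok6, at the age when axons are being sorted.

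Dok proteins are docking adaptors without enzyme activity. A pleckstrin homology domain brings them to the membrane, a phosphotyrosine binding domain attaches them to an activated receptor, and tyrosines in the tail are then phosphorylated and recruit further proteins. Dok1, Dok2 and Dok3 are best known in blood cells, where they restrain Ras and Erk signaling. Dok4, Dok5 and Dok6 form a subfamily found in neurons, whose members bind Ret and some of the Trk receptors. Dok7 acts from inside the muscle fibre as the activator of the kinase MuSK at the neuromuscular junction.

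The deletion removes exon 3 of Dok6, and the gene models of its 2 nearest relatives carry a counterpart of that exon with the same number of bases. In Dok4, Dok5 and Dok6, the first 5 coding exons hold 66, 108, 115, 120 and 190 coding bases each, and from coding exon 6 onwards the 3 genes are no longer all equal. The third coding exon, of 115 bases, was identical at 78 positions (67.8%) between Dok5 and Dok6, at 72 (62.6%) between Dok4 and Dok6, and at 69 (60.0%) between Dok4 and Dok5. The counterparts in the 2 paralogues are shown because they are the stretch that the mutants lack in Dok6 and retain in Dok4 and Dok5. Both are from GRCm38, read 5′ to 3′ on the coding strand, with the bases that differ between Dok4 and Dok5 in capitals. The Dok4 exon lies at chr8:94867128-94867242 on the minus strand and the Dok5 exon at chr2:170829840-170829954 on the plus strand.
Dok4: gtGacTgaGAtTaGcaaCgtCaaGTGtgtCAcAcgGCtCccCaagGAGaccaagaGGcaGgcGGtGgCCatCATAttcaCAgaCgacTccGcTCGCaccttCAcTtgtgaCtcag
Dok5: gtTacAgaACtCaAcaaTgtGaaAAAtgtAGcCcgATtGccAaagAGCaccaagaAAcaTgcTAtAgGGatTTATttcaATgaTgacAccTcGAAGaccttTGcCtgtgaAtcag
The capitals are spread over the whole exon. Over all annotated transcripts, untranslated parts included, the longest identical run between any pair of the 7 genes was 17 bases, in Dok5 and Dok6, so a read that matches over more bases than that fits 1 member only.

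**Figure D1:**
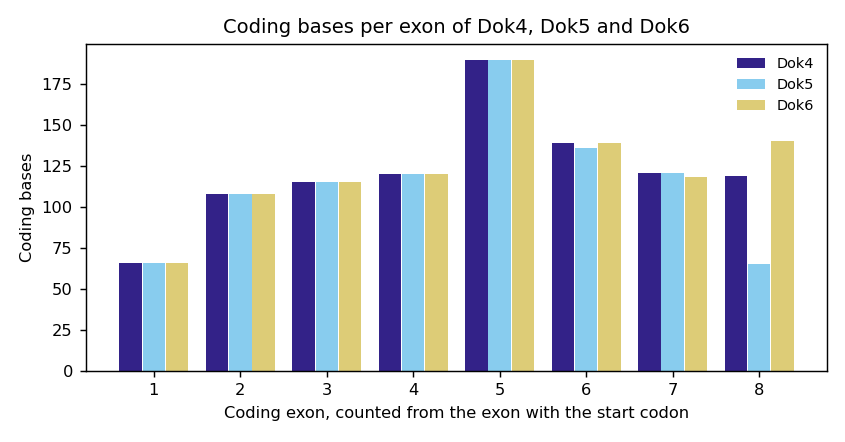
Coding bases (vertical axis) in each coding exon of Dok4, Dok5 and Dok6 (horizontal axis, counted from the exon with the start codon). The bars of the 3 genes are equal for coding exons 1 to 5, including the 115 bases of coding exon 3, and are not all equal in coding exons 6 to 8.

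The 7 genes were all expressed above the limit of 3 counts, which corresponded to 0.156 to 0.172 CPM (counts of a gene per M counts of its library), in every library, but at levels far apart. To compare genes, CPM were divided by the gene length that accompanies the counts, giving RPKM (CPM per kilobase of gene). Dok4 was the most abundant member in the control mice at 25.0 ± 2.46 RPKM (SD, n = 3), above 87.4% of the genes tested. Dok5 followed at 11.5 ± 0.262 RPKM and was below Dok4 in every control library. Dok7 at 3.28 ± 0.451 RPKM and Dok6 at 3.06 ± 0.646 RPKM overlapped in their values, and no order between them can be read. The blood cell members came last and overlapped with each other, Dok3 at 0.692 ± 0.304, Dok2 at 0.592 ± 0.155 and Dok1 at 0.580 ± 0.0299 RPKM. The length given for Dok6, 5146 bases, is shorter than its exons in the GENCODE M21 annotation, 13804 bases, whereas the lengths of the other 6 members equal theirs. With the annotated length, the level of Dok6 in the controls was 1.14 ± 0.241 RPKM, which overlapped with Dok3 and no longer with Dok7. A level per length holds only where the length matches the bases counted, and which bases were counted for Dok6 is not given. These levels rest on 17 to 43 reads per control library for Dok1, Dok2 and Dok3, 208 to 362 for Dok5, Dok6 and Dok7, and 1197 to 1454 for Dok4.

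The makeup of the libraries bears on every comparison of the genotypes. The totals were between 17699904 and 18678170 counts, so depth differed little. Sciatic nerve holds axons, Schwann cells, fibroblasts and vessels but few neuronal cell bodies, yet genes of spinal cord neurons and central glia were abundant in all 6 libraries. Gad1, a GABA synthesis enzyme, was at 167 to 232 CPM, and Aqp4, an astrocyte water channel, at 224 to 532 CPM. The libraries are therefore called control and Dok6 mutant libraries labelled sciatic nerve, and fewer cells of a type cannot be told apart from less RNA per cell. Sums of markers separated the genotypes for sensory neurons, at 333 to 377 against 509 to 1182 CPM with 11 of 16 markers passing the test as higher, and for skeletal muscle, at 47.9 to 67.5 against 184 to 835 CPM with 14 of 24 higher. They also separated for fibroblasts, with 4 of 7 markers higher, for endothelium, with 3 of 9 higher, and for macrophages and microglia, with 1 of 17 higher. Sums overlapped for Schwann cells, with 6 of 14 markers higher, for central glia and for pan-neuronal genes, with 0 of 14 and 0 of 15 passing, and for lymphoid and neutrophil genes, with 0 of 12 and 0 of 8. The spinal neuron sum was lower in the mutants, at 1009 to 1122 against 1193 to 1373 CPM, with 2 of 12 markers lower and 1 higher. The lower ones were 0 without control mouse 2, mutant mouse 1 or mutant mouse 2, 1 without control mouse 1 or 3, and 4 without mutant mouse 3. The sum of 5 platelet genes overlapped and none passed. Without control mouse 2 these counts of higher markers fell to 4 for sensory neurons, 2 for skeletal muscle and 0 for Schwann cells, fibroblasts, endothelium and macrophages and microglia. Schwann cell markers also fell to 1 without control mouse 1 or 3 and to 0 with limma voom, and endothelial ones to 1 without mutant mouse 1 and 0 without control mouse 3. Fibroblast markers fell to 2 without mutant mouse 2. Counts also rose, for endothelium to 6 without control mouse 1, for macrophages and microglia to 3 without control mouse 1 or 3 or mutant mouse 3, and for central glia from 0 to 3 without mutant mouse 3. Without control mouse 1, 1 platelet gene passed as higher and 1 pan-neuronal gene as lower. Without mutant mouse 3, 1 neutrophil gene passed as higher and 2 pan-neuronal genes as lower. With DESeq2, 1 pan-neuronal gene was higher and 3 were lower. Ly6g (neutrophil) and Tnnc2 (muscle) had 0 counts in all libraries. The part of these differences in the results for the Dok genes was not tested.

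Between genotypes, 2 Dok genes were higher in the mutants (Dok1 and Dok4), 1 was lower (Dok6) and 4 did not pass the edgeR quasi-likelihood test at an adjusted p under 0.05. Of all genes tested, 14.6% passed, 8.62% as higher and 6.01% as lower. The values of the 2 genotypes did not overlap for 4 members, higher for Dok1, Dok4 and Dok5 and lower for Dok6. Over all genes 38.2% did not overlap, 19.6% higher and 18.7% lower in the mutants. The members are few to set beside these shares, and the difference was not tested. No Dok gene passed the study's second criterion of an absolute log2 fold change above 2, which 1.19% of all genes passed together with the adjusted p. The counts depend on single libraries, most on control mouse 2. Without it, 0 Dok genes were higher and 1 was lower, and over all genes 56 were higher and 12 lower, in place of 1474 and 1028.

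**Figure D2:**
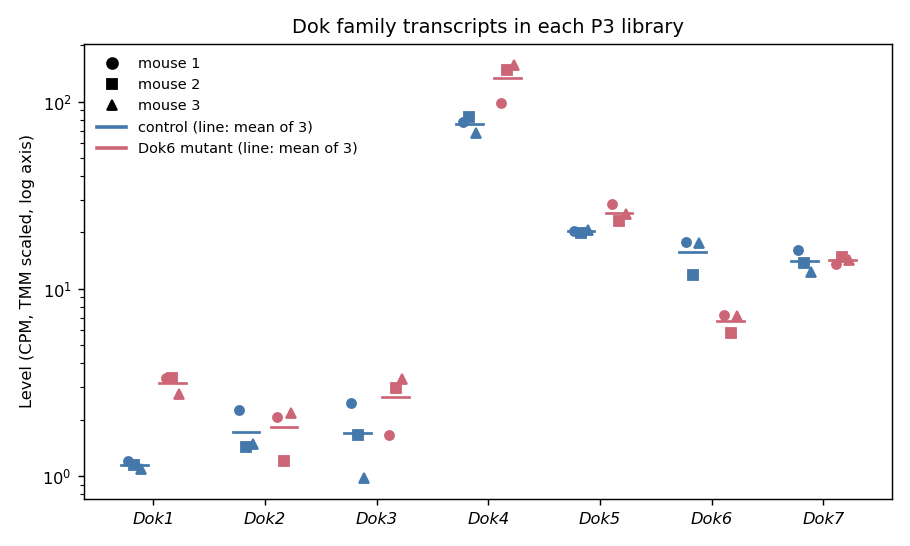
Level of each Dok gene (vertical axis, CPM scaled by TMM, log axis) in each library, with control mice in blue, Dok6 mutant mice in red, 1 symbol per mouse number and a line at the mean of 3. Values of the genotypes do not overlap for Dok1, Dok4, Dok5 and Dok6 and overlap for Dok2, Dok3 and Dok7.

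Dok6, the mutated gene, was lower in every mutant library. It was counted at 311, 208 and 306 reads in the controls, or 17.8, 11.9 and 17.5 CPM, and at 140, 106 and 135 reads in the mutants, or 7.26, 5.78 and 7.15 CPM. The lowest control was therefore above the highest mutant, and control mouse 2 stood below the other controls. The log2 fold change was -1.23 (SE 0.20, 95% interval -1.67 to -0.78, edgeR adjusted p = 0.0118), which left 42.8% of the control level. The length deposited with the count, 5146 bases, is shorter than annotated exon 8 alone, 8851 bases, so which bases were counted is not known. In the annotated transcript the deleted exon makes up 1.14% and exon 8 87.6%. The count gives the level of Dok6 transcript and does not by itself show the absence of exon 3. Dok6 spans 477 kb of chromosome 18 (89292424 to 89769528, minus strand, GRCm38), the longest of the 7 genes, and encodes 331 amino acids.

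Dok4 had the largest difference in CPM of the family. The gene lies on chromosome 8 (94863828 to 94876330, minus strand) and encodes an adaptor of 325 amino acids that, like Dok6, binds Ret. It was at 77.5, 83.4 and 68.5 CPM in the controls and at 98.9, 147 and 158 CPM in the mutants. All mutants were above all controls, and mutant mouse 1 was nearer to the controls than to the other mutants. The log2 fold change was 0.82 (SE 0.17, 95% interval 0.44 to 1.19, edgeR adjusted p = 0.0200), a 1.76-fold higher level. The spread among the mutants, 135 ± 31.4 CPM (SD, n = 3), was larger than counting error, which was at most 2.89% of a value for this gene. The sum of sensory neuron markers was lowest among the mutants in the same mouse, at 509 CPM in mouse 1 against 1182 and 1145 CPM in mice 2 and 3, and its part in the result for Dok4 was not tested. Direction held under all 13 alternative analyses, but the call was lost in 5 of them. Without control mouse 1, 2 or 3 or mutant mouse 2 the log2 fold changes were 0.83, 0.88, 0.75 and 0.75. The adjusted p-values there were 0.0506, 0.0834, 0.0507 and 0.0593. With a replicate block by mouse number the log2 fold change was 0.79 (edgeR adjusted p = 0.0533). Over all alternatives the adjusted p-value ranged from 6.89e-05 to 0.0834.

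The Dok4 count shares bases with a neighbour. Of its exonic bases, 953 (31.2%) lie opposite exons of Polr2c, which encodes a subunit of RNA polymerase II, and no other Dok gene overlaps an exon of another gene. The labels and the methods name different versions of the library kit, of which only the second is directional, and the use of strand in counting is not given in the sources used here, so reads from the shared bases may have been counted for either gene. Polr2c, named after its values were seen, was at 32.8, 33.3 and 32.6 CPM in the controls and 29.6, 22.2 and 23.3 CPM in the mutants. Its log2 fold change was -0.39 (SE 0.12, edgeR adjusted p = 0.0655), opposite in sign to that of Dok4.

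Dok5, the relative with the highest identity to Dok6 (68.8% of aligned coding bases), was at 20.3, 19.8 and 20.7 CPM in the controls and 28.3, 23.0 and 25.0 CPM in the mutants. The controls were nearly equal, with an SD of 0.464 CPM, and all lay below the mutants. The log2 fold change of 0.33 (SE 0.11, 95% interval 0.07 to 0.59) had an unadjusted p-value of 0.0200 in the edgeR quasi-likelihood test and did not pass after adjustment (adjusted p = 0.0861). It did not pass in any of the 13 alternatives, where the adjusted p-value was 0.0801 to 0.268. Dok5 spans 148 kb of chromosome 2 (170731807 to 170879769, plus strand) and encodes 306 amino acids. Whether Dok4 and Dok5 changed by different amounts was not tested, and their intervals overlapped.

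The balance within the neuronal subfamily also differed between genotypes. Per length, control libraries held 7.31, 11.8 and 6.59 times as much Dok4 as Dok6, and mutant libraries 22.9, 42.9 and 37.2 times as much. Dok5 exceeded Dok6 by 3.31, 4.83 and 3.44 times in the controls and by 11.4, 11.6 and 10.2 times in the mutants. Both ratios were higher in every mutant, and the lower Dok6 enters both. The size of these ratios depends on the length taken for Dok6, and which length matches the bases counted is not given. With its annotated length, Dok4 exceeded Dok6 by 17.7 to 31.6 times in the controls and by 61.5 to 115 times in the mutants, and Dok5 exceeded it by 8.89 to 13.0 and by 27.2 to 31.0 times. Without Dok6 in the ratio, Dok4 per Dok5 was 2.21, 2.44 and 1.91 in the controls and 2.02, 3.71 and 3.66 in the mutants, so that mutant mouse 1 lay within the control range. The sum of Dok4, Dok5 and Dok6 was 39.5 ± 1.77 RPKM in the controls and 59.7 ± 8.95 RPKM in the mutants (n = 3 each). Adding all 7 genes gave 46.5, 45.8 and 41.8 RPKM in the controls and 56.1, 69.0 and 74.0 RPKM in the mutants, 1.48 times as much and without overlap. The share of Dok6 in this sum fell from between 5.06% and 8.13% to between 1.63% and 2.52%, while Dok4 made up 53.6% to 59.6% in the controls and 57.7% to 69.8% in the mutants. With the annotated length the share of Dok6 was 1.95% to 3.19% in the controls and 0.613% to 0.953% in the mutants. Apart from Dok6, the other 6 genes summed to 41.6 ± 2.77 RPKM in the controls and 65.0 ± 9.30 RPKM in the mutants. The difference, 23.4 RPKM, was larger than the whole level of Dok6 in the controls and was not tested. Most of it lay in Dok4, at 25.0 RPKM in the controls and 44.1 RPKM in the mutants. The limits given above for Dok4, its lost calls and the bases shared with Polr2c, therefore apply to the sums as well.

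**Figure D3:**
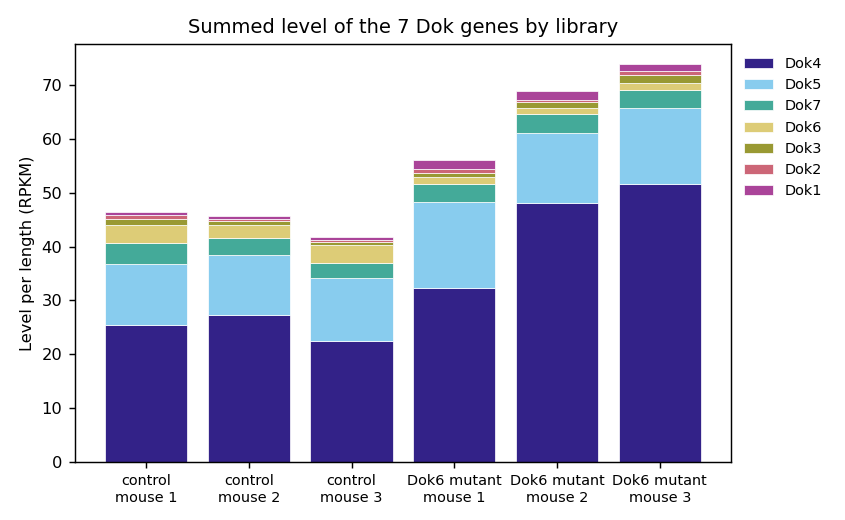
Level per gene length (vertical axis, RPKM) of the 7 Dok genes, stacked for each of the 3 control and 3 Dok6 mutant libraries. The stack reaches 41.8 to 46.5 RPKM in the controls and 56.1 to 74.0 RPKM in the mutants, and most of each stack is Dok4.

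Dok7 was at 16.1, 13.8 and 12.2 CPM in the controls and 13.6, 14.7 and 14.3 CPM in the mutants. The mutant values lay within the control range, and the log2 fold change was 0.02 (SE 0.14, 95% interval -0.30 to 0.34, edgeR adjusted p = 0.935). Dok7 lies on chromosome 5 (35056766 to 35087839, plus strand) and, at 504 amino acids, encodes the longest protein of the family. The summed level of skeletal muscle markers was higher in every mutant library (14 of 24 markers passed), while the interval of Dok7 spans 0.

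Dok1 had the largest relative increase among the 7, from a low base. It was counted at 21, 20 and 19 reads in the controls and 64, 61 and 52 in the mutants, or 1.20, 1.15 and 1.09 against 3.32, 3.33 and 2.76 CPM. The genotypes were well apart, with no overlap. The log2 fold change was 1.45 (SE 0.25, 95% interval 0.88 to 2.01, edgeR adjusted p = 0.0136), or 2.72-fold higher, and was larger than that of 97.3% of genes. At these counts, counting error alone was 12.5% to 22.9% of a value. Without control mouse 2 the log2 fold change was 1.44 and the adjusted p-value 0.0761, in a range of 0.00203 to 0.0761 over the alternatives. The call was also lost with a replicate block by mouse number (log2 fold change 1.44, edgeR adjusted p = 0.0530). Dok1 is a compact gene of 2.54 kb on chromosome 6 (83030934 to 83033471, minus strand), encodes 482 amino acids and, like Dok2, docks the Ras GTPase activating protein Rasa1.

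Dok2 and Dok3 did not pass the test. Dok2 was at 2.24, 1.43 and 1.49 CPM in the controls and 2.07, 1.20 and 2.17 CPM in the mutants, which overlapped, and its log2 fold change was 0.08 (SE 0.34, 95% interval -0.69 to 0.85, edgeR adjusted p = 0.892). Dok3 was at 2.47, 1.66 and 0.972 CPM in the controls and 1.66, 2.95 and 3.29 CPM in the mutants. Its genotypes also overlapped, and the log2 fold change was 0.63 (SE 0.40, 95% interval -0.28 to 1.53, adjusted p = 0.304). Without control mouse 3 the log2 fold change of Dok3 was 0.35 and without control mouse 1 it was 0.99. The intervals of both include changes of the size seen for Dok4, so such changes are not excluded here. Dok2 lies on chromosome 14 (70766036 to 70778495, plus strand) and Dok3 on chromosome 13 (55523231 to 55529296, minus strand). Macrophage and microglia markers, cells in which these adaptors are known, summed to 139 to 195 CPM in the controls and 204 to 234 CPM in the mutants, with Tmem119 alone of 17 passing as higher. The part of these cells in the values of Dok1, Dok2 and Dok3 was not tested.

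**Figure D4:**
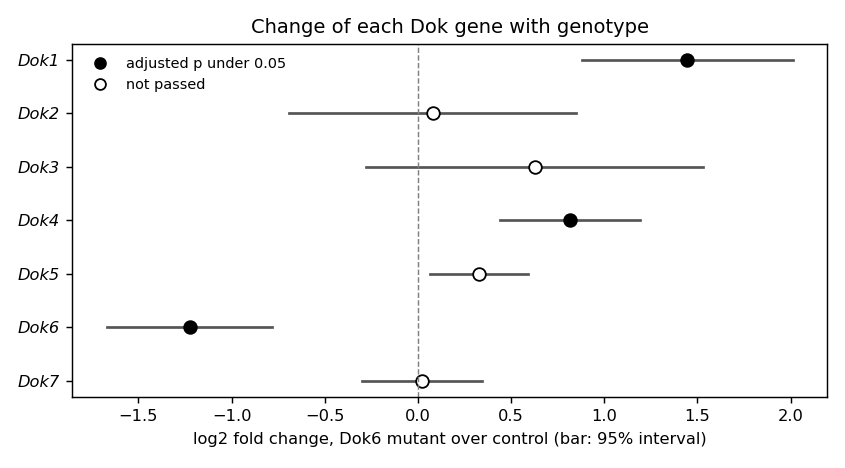
Log2 fold change of each Dok gene, Dok6 mutant over control (horizontal axis), with the 95% interval of the edgeR quasi-likelihood fit as a bar. Filled points (Dok1, Dok4, Dok6) passed at an adjusted p under 0.05 and open points did not. The interval of Dok5, 0.07 to 0.59, excludes 0 before adjustment, and those of Dok2, Dok3 and Dok7 include it.

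The order of the family in the mutants was Dok4 at 44.1 ± 10.3 RPKM, Dok5 at 14.4 ± 1.53 and Dok7 at 3.33 ± 0.128, with no overlap between neighbours. Below them, Dok1 at 1.59 ± 0.166, Dok6 at 1.31 ± 0.160, Dok3 at 1.07 ± 0.349 and Dok2 at 0.626 ± 0.185 RPKM each overlapped with the next. With the deposited lengths, Dok6 stood beside Dok7 in the controls and among the blood cell members in the mutants. This shift in order holds only with the deposited length of Dok6, and which length matches the bases counted is not given. With the annotated length, Dok6 overlapped with Dok3 in the controls already, and its level in the mutants was 0.488 ± 0.0598 RPKM.

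Genes that signal with Dok proteins were examined as 5 lists of 64 genes in all, of which 57 were tested, 7 passed as higher and 3 as lower. These are 17.5% of the tested list genes, near the 14.6% of all genes. Without control mouse 2, 1 gene passed as higher and 0 as lower, and without mutant mouse 2, 4 and 0. The lower genes were 1 without control mouse 1 and 0 without mutant mouse 1. Of the 14 receptors, 4 were higher, among them Gfra3, a co-receptor of Ret, Tek, the angiopoietin receptor to which Dok2 binds, and Kit. Gfra3 was at 2.07, 2.06 and 0.743 CPM in the controls and 5.19, 15.9 and 16.5 CPM in the mutants (log2 fold change 2.94, SE 0.51, edgeR adjusted p = 0.0135). All mutants were above all controls, and mutant mouse 1 was the lowest of the mutants. Tek had a log2 fold change of 0.86 (SE 0.18, adjusted p = 0.0209) and is also a marker on the endothelial list, and Kit had one of 0.36 (SE 0.10, adjusted p = 0.0416). Without control mouse 2 these 3 receptors did not pass, Tek was also lost without control mouse 3 or mutant mouse 1, and Kit without any 1 mouse other than control mouse 3. Ret and Ntrk3, receptors that bind Dok6, did not pass. Ret was at 229, 182 and 187 CPM in the controls and 188, 271 and 276 CPM in the mutants (log2 fold change 0.29, adjusted p = 0.220). Ntrk3, the neurotrophin-3 receptor TrkC, was at 171, 147 and 139 against 177, 177 and 206 CPM, without overlap (log2 fold change 0.29, SE 0.10, adjusted p = 0.0873). Ntrk2, which encodes TrkB, had a log2 fold change of 0.01 (adjusted p = 0.969), and its sign turned with RLE scaling. Among 11 ligands tested of 13, 0 passed with edgeR, DESeq2 or voom and 1 had an unadjusted p under 0.05. Without control mouse 1, 1 ligand passed as higher.

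Among 14 partners and kinases that bind phosphorylated Dok tails or phosphorylate them, Crk was higher (log2 fold change 0.28, SE 0.07, edgeR adjusted p = 0.0400) and Grb2, through which Dok3 acts, lower (-0.31, SE 0.09, adjusted p = 0.0487). Both calls were fragile, since leaving out 1 mouse lost Crk in 4 of 6 cases (all but control mouse 3 and mutant mouse 3) and Grb2 in 5 of 6 (all but mutant mouse 3). Over 13 alternatives their adjusted p-values ran from 0.0300 to 0.149 and from 0.0180 to 0.163. Rasa1 was at -0.16 (SE 0.08, adjusted p = 0.210), lower in every mutant but short of the threshold. Of 15 docking adaptors outside the Dok family, Shc1 was higher, from 13.0, 7.57 and 6.86 CPM to 23.0, 27.4 and 29.3 CPM (1.54, SE 0.24, adjusted p = 0.0108), as was Shc2 (0.60, adjusted p = 0.0207). Frs2 and Frs3, which dock to Trk receptors in place of Shc, were lower, at -0.48 (adjusted p = 0.0314) and -0.41 (adjusted p = 0.0225). Without control mouse 2 none of these 4 passed. Without mutant mouse 2 only Shc1 of them passed, without mutant mouse 1 both Frs genes were lost, and Frs2 was also lost without control mouse 1 or mutant mouse 3. Of the 11 neuromuscular junction genes, 6 were tested and 0 passed with edgeR, DESeq2 or voom, with 1 (Musk) at an unadjusted p under 0.05. Without the filter on low counts all 11 were tested and 2 passed as higher (Rapsn and Colq), and 1 passed without control mouse 1, mutant mouse 1 or mutant mouse 3. Musk, the kinase that Dok7 activates, was at 0.975, 0.917 and 0.515 CPM in the controls and 1.71, 1.80 and 1.11 CPM in the mutants (log2 fold change 0.94, SE 0.37, adjusted p = 0.117). Its co-receptor Lrp4 and their ligand Agrn were at 0.09 (adjusted p = 0.825) and 0.04 (adjusted p = 0.852). The medians of the 5 lists, 0.29, 0.10, -0.08, -0.05 and 0.13 for receptors, ligands, partners, other adaptors and junction genes, stood beside a median of 0.01 over all genes tested. These medians are not stable to single libraries. That of the ligands was 0.43 without control mouse 3 and 0.15 without control mouse 2. The junction genes ranged from 0.04 without mutant mouse 1 (7 genes tested) to 0.59 without control mouse 1 (8 genes tested). Their median in the main fit covers 6 genes, and without the filter on low counts it was 0.89 over all 11. These junction medians are therefore over different genes. The partners moved to -0.04 without control mouse 1 and -0.05 without mutant mouse 2. Other adaptors were at 0.01 without mutant mouse 2 and -0.11 without mutant mouse 3.

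**Figure D5:**
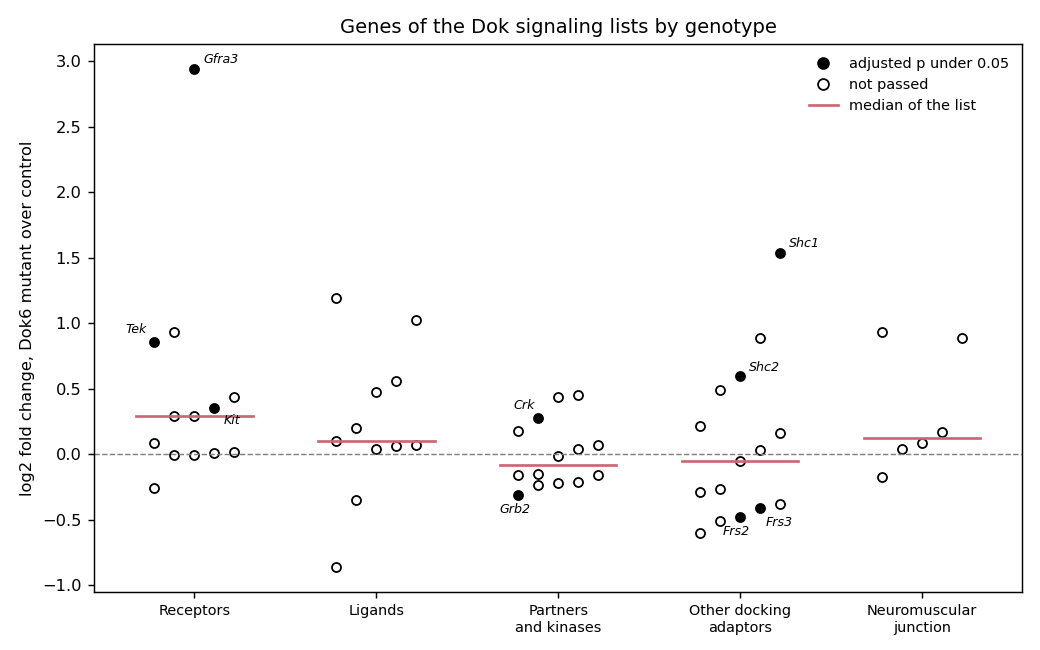
Log2 fold change, Dok6 mutant over control (vertical axis), of genes of 5 lists (horizontal axis), with a red line at the median of each list. Filled points passed at an adjusted p under 0.05 and are named, and Gfra3 at 2.94 lies far above the other points.

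The genes with the pattern most like each Dok gene were ranked by Pearson's r of log2 CPM over the 6 libraries, among 15675 genes with a mean of at least 1 CPM. Since the 6 libraries come from 2 genotypes, a gene that separates the genotypes can score highly with Dok1, Dok4 and Dok6. For Dok1 the nearest were Pnpla3, Apba3 and Rprd1a, and 1135 genes had an r above 0.9. For Dok4 they were Prrg3, Rab3d (both 0.999) and Etv1 (0.998), with 453 genes above 0.9. Dok5 was nearest to Id1 (0.993), Gramd4 (0.991) and Slx4 (0.989), and Dok6 to Hspd1-ps3 (0.998), Ddx42 (0.996) and Zfp955b (0.990). The members that overlapped between genotypes had fewer such genes, 48 for Dok2 with Spef1 (0.986) first, 151 for Dok3 with Sirt4 (0.991) first, and 63 for Dok7 with Cyp4f16 (0.990) first.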

How the data were processed

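The authors deposited raw counts, the whole number of reads per gene in each mouse, with a length for each gene. Per the labels the reads were mapped to mm10, and the aligner, the counter and its use of strand are not given in the sources used here. Groups and mouse numbers were read from the labels, and the controls are called littermates without a record of which mice shared a litter, so p-values measure the spread between these samples.

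The test was edgeR's quasi-likelihood test (edgeR 4.0.16, R 4.3.3) on genotype alone, after filterByExpr and TMM scaling, with Benjamini-Hochberg adjustment over 17099 genes and an adjusted p under 0.05 as threshold. SE and 95% intervals were derived from the F statistic. CPM are TMM scaled, and RPKM divide them by the deposited length. Floors and counting errors cover counting error only, since there are no molecular identifiers. No 2 libraries agreed within sampling noise. Gene models came from GENCODE M21 on GRCm38, and BLAST 2.17.0 was used to look for transcripts nearly identical to those of the members. The members, gene lists and tests were chosen with earlier results of these data known. Named list genes are those with an adjusted p under 0.05 plus Ret, Ntrk2, Ntrk3, Musk, Lrp4, Agrn and Rasa1, and for likeness the 3 nearest genes per member (prior count 2). Some items, 1 gene of the receptor list among them, are not reported here or drawn. The same values were recomputed with DESeq2 1.42.0 and with voom (limma 3.58.1), after scaling by RLE or by the upper quartile, with the filter dropped or set to a minimum of 10 counts per library, with a replicate block, without each mouse, and with the annotated exon length. Procedures were tested on simulated data.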

Additional observations from a re-analysis of the deposited data

How the results depend on the processing

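Of 91 combinations of the 7 Dok genes with 13 alternatives, 78 kept direction and side of the threshold, 7 lost the call and 6 turned sign. Dok3, Dok5 and Dok6 kept theirs in all 13, with Dok6 between -1.39 and -1.12. No pairing of the libraries by mouse number was seen. Deviations of same-numbered mice correlated at -0.00781, -0.168 and -0.243, and 0 libraries correlated best with their own number. With 3 mice per group and no record of litters, these values cannot exclude a pairing. With the replicate block, Dok1 was at 1.44 (adjusted p = 0.0530) and Dok4 at 0.79 (adjusted p = 0.0533), 0 Dok genes were higher, 432 of all genes were higher and 130 lower (1474 and 1028 without it), and 4 genes of the signaling lists were higher and 0 lower. Leaving out 1 mouse at a time gave 1.40 to 1.53 for Dok1, 0.35 to 0.99 for Dok3, 0.69 to 1.00 for Dok4, -0.07 to 0.32 for Dok2 and -0.06 to 0.13 for Dok7. It gave 0 to 2 Dok genes higher, 56 to 1671 of all genes higher and 12 to 1233 lower, with the lowest counts without control mouse 2, and 1 to 9 list genes higher and 0 to 4 lower. Dok2 turned sign without control mouse 2 (-0.04) or 3 (-0.01) or mutant mouse 1 (-0.03) or 3 (-0.068), and Dok7 without control mouse 3 (-0.065) or mutant mouse 2 (-0.004). The alternatives for the list genes were chosen after seeing the data. Among these, DESeq2 gave 5 list genes lower in place of 3. Ntrk2 turned sign with DESeq2 (-0.0012) and RLE scaling (-0.0013), and without control mouse 2 (-0.021) or 3 (-0.036) or mutant mouse 1 (-0.087), in a range of -0.087 to 0.087. Agrn turned without control mouse 2 (-0.021) or 3 (-0.027) or mutant mouse 3 (-0.014), in a range of -0.027 to 0.17, and Lrp4 without control mouse 3, in a range of -0.15 to 0.35. The genes past a log2 fold change of 2 as well, 185 higher and 19 lower, were 326 and 38 without the filter and 74 and 2 with at least 10 counts in every library, and 26 and 1 without control mouse 2. With the annotated length Dok6 was at 1.14 RPKM in the controls and 0.488 RPKM in the mutants. Dok1, Dok2 and Dok3 rest on 17 to 64 reads per library, and how far depth limits them was not tested.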

Other observations

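Of the neuromuscular junction genes that belong with Dok7, 5 were below the filter on low counts, and 4 of these had more counts in every mutant library than in any control, where 19.6% of the genes tested did not overlap in this direction. Rapsn, which anchors acetylcholine receptors, was counted at 3, 2 and 2 reads in the controls and 10, 20 and 17 in the mutants. Colq, the collagen tail of acetylcholinesterase, was counted at 4, 5 and 3 reads against 24, 19 and 9. The receptor subunits Chrng (1, 1 and 1 against 2, 20 and 4 reads) and Chrnd (0, 0 and 0 against 1, 11 and 4) were near the limit of 3 counts, and Chrne overlapped. Skeletal muscle markers also summed higher in every mutant, at 47.9 to 67.5 CPM in the controls and 184 to 835 CPM in the mutants, with 14 of 24 higher. Among the mutants the muscle sum was 835, 470 and 184 CPM in mice 1, 2 and 3. Of the 4 genes only Colq followed that order, and the part of muscle was not tested. The 5 genes were chosen after their values were seen. Tested without the filter, Rapsn had a log2 fold change of 2.58 (SE 0.65, edgeR adjusted p = 0.0133) and Colq one of 1.97 (SE 0.59, adjusted p = 0.0366), while Chrnd, Chrng and Chrne did not pass (adjusted p = 0.0521, 0.0811 and 0.724). With the filter set anew after leaving out 1 mouse, Rapsn did not pass without control mouse 2 (adjusted p = 0.0960) or 3 (0.0545), and Colq did not pass without control mouse 1 (0.0922), 2 (0.119) or 3 (0.100).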
